A study of Rattus norvegicus with 3 samples.

Results

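The surfeit locus on rat chromosome 3 was described through the regions that MACS, a peak caller, found in pairwise comparisons of captured methylated DNA and that lie in a window of 1 Mb around Surf6 (5290000 to 6290000, assembly rn4). A region was a member if it overlapped that window in any of the 3 deposited lists, and 76 regions of 95306 did so. Each list is named by a pair of libraries and holds regions that were higher in the library named first. The MLP vs. C list gave 24 members, the MLP vs. MLP-F list 35 and the MLP-F vs. C list 17. The window was chosen by the score of a region annotated to Surf6 in these same lists, so the scores of that region are given as a description and were not tested.

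The libraries came from livers of male Wistar pups aged 1 day, named by the diet of the dam during pregnancy. C dams received a normal diet, MLP dams a low protein diet and MLP-F dams the low protein diet with added folate (folic acid). Genomic DNA of 6 animals per group by the labels, and of more by the paper, was pooled into 1 library per group, and fragments with methylated CpG were captured with a methyl-CpG binding domain (MBD) and sequenced. The paper states that a single litter was studied in each group, so diet and litter cannot be told apart, and there was no group of control dams with added folate. With 1 library per group there was no replicate error and no test of the diets. The depth of the libraries is not in the lists. By the study's library statistics MLP was sequenced most deeply and C least, and the effect of depth on each list was not tested. MACS gave each region a p, with the first library as treatment and the other as control, and the score is 10 times its −log10. The lowest score was 50 in every list, which is a p of 1e-05. The lists thus run down to the p cut-off and carry no FDR, and the study itself kept only part of such regions after an FDR filter. A listed region is therefore a call at that cut-off and not an established difference in methylation. A score ranks a region within its own list and moves with the depth of both libraries as well, so scores of different lists are set side by side without a test.

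The surfeit locus is known as a tight cluster of housekeeping genes that are unrelated in sequence and lie very close together, some of them sharing a promoter region with a neighbour on the opposite strand. Surf6 encodes a nucleolar protein that takes part in the making of ribosomes. Of the others, Med22 encodes a subunit of the Mediator complex, Rpl7a a protein of the large ribosomal subunit, Surf1 an assembly factor of cytochrome c oxidase and Surf4 a receptor that loads cargo proteins for export from the endoplasmic reticulum. In the RefSeq annotation of the current rat assembly, GRCr8, the order of protein-coding genes is Abo, Surf6, Med22, Rpl7a, Surf1, Surf2, Surf4, Stkld1 and Rexo4, and Abo encodes the glycosyltransferase of the blood group. Positions of these genes on rn4 were not used here, so apart from the region annotated to Surf6 the members are given by position and not by gene.

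The MBD binds methylated CpG, so the CpG content of the cluster's promoters is shown for context. The sequence upstream of Surf6 in GRCr8 (RefSeq; chr3:30630389-30630557, minus strand, 169 bases that end where the annotated gene begins) holds 12 CpG, printed in capitals.
Surf6 upstream: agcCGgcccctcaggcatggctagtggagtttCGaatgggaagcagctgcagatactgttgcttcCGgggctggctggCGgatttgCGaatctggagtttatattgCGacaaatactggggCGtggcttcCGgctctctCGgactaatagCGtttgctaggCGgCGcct
In windows of 300 bases around the start of transcription, CG, a motif that reads the same on both strands, occurred 28 times for Surf6, 36 times for Med22, 37 for Rpl7a, 20 for Surf1 and 24 for Surf2. The median over 27457 genes was 8, and 95.1% of genes had at least 1. Windows with as many CpG as that of Rpl7a were found for 5.36% of genes, and with as many as that of Surf6 for 14.1%. Of the 6 genes of the cluster 5 matched the table, and for genes with several entries the one with the most CpG was counted. Med22 and Rpl7a, and likewise Surf1 and Surf2, lie head to head, so their windows share sequence. These counts describe the reference sequence. They do not place any member of the window at a promoter.

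The Surf6 region (5790883 to 5793008, 2126 bp) had by far the highest score of the window in both lists with MLP as the first library. Its score was 2264 in MLP vs. C and 3100 in MLP vs. MLP-F, while the next highest scores of the window were 407 and 374. Against C it held place 14 of 35998 regions, and against MLP-F it shared the highest score of the list with 4 other regions. Both MLP lists had 3100 as their highest score, at 5 regions in each, so 3100 reads as a ceiling of the score. Regions at 3100 cannot be ranked among each other. Regions with a score of at least 1000 made up 0.186% of the list against C and 0.216% of the list against MLP-F. The Surf6 region was also long, since 0.542% of MLP vs. C regions and 0.981% of MLP vs. MLP-F regions were as long or longer. The study names the Surf6 region, and the 4 that share its score, in the MLP vs. MLP-F list it kept after an FDR filter. That list too rests on 1 library per group. Whether the MLP vs. C call at Surf6 passed the study's filter is not given here. The study's annotation places the region within an intron of Surf6 and names low-complexity sequence and a tandem repeat there. The sequence of the region on rn4 was not analysed here, and the part of the repeat in the score was not tested. RefSeq lists 3 Surf6 pseudogenes, on chromosomes 2, 10 and X of GRCr8. The authors kept 1 alignment per read pair, and how reads from such copies were placed was not tested.

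No MLP-F vs. C region overlapped the Surf6 region. The nearest lay 3934 bp before it (5786299 to 5786948) and scored 92.8, and the nearest after it lay 62305 bp away and scored 67.7. At this place MLP was thus listed above either of the other libraries, and MLP-F was not listed above C. A region that a list lacks may still have differed between the libraries, and regions lower in the first library of a pair were not analysed here.

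Immediately before the Surf6 region, after a gap of 3788 bp, came a region held by a different pair of lists. The one from 5786246 to 5787094 scored 62.4 in MLP vs. C and overlapped the MLP-F vs. C region that scored 92.8, and it was not listed against MLP-F. Beyond it no list held a region for 51901 bp. On the other side the Surf6 region was followed by 62201 bp without a region in any list, the longest gap between neighbouring loci of the window. Gaps at least that long made up 16.8% of all gaps between loci on placed chromosomes, where the median was 18492 bp, against a median of 8308 bp in the window. The Surf6 region and its neighbour therefore stood apart from the remaining loci in a stretch that was otherwise free of listed regions. Such a position was not particular to them. Gaps of at least 51901 bp made up 20.8% of all gaps, and the locus from 5456697 to 5457648 had gaps of 48010 and 52157 bp on its sides.

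**Figure D1:**
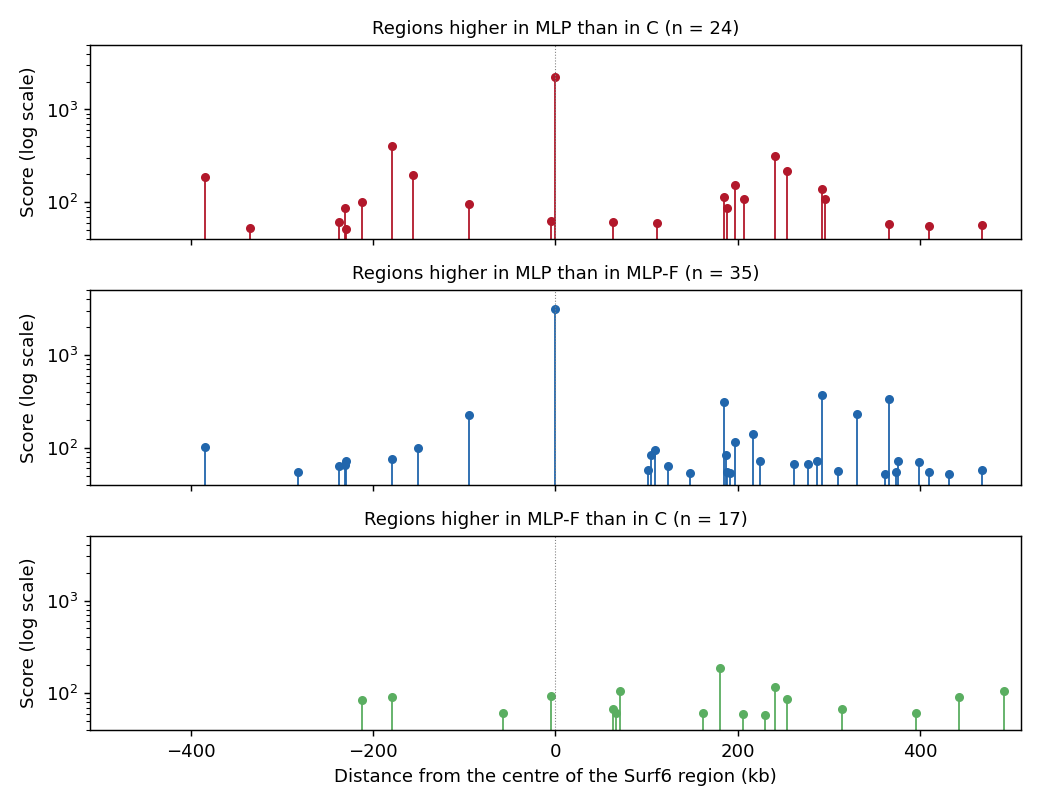
Score of each region (log scale) against its distance in kb from the centre of the Surf6 region, 1 panel for each list; each stem is 1 region. The Surf6 region scores 2264 against C and 3100 against MLP-F and has no counterpart in the MLP-F vs. C panel, where the highest score is 188.

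The 76 regions were joined into 56 loci by overlap of at least 1 bp. Of these, 13 lay before the Surf6 region and 42 after it. The first locus began 117646 bp inside the window, so the early part of the window held none. In MLP vs. C the split was close to even, with 10 regions before and 13 after. The imbalance lay in the other lists, with 8 and 26 in MLP vs. MLP-F, and 4 and 13 in MLP-F vs. C. The lists share libraries, so these counts are not independent. Of the loci listed in MLP vs. MLP-F alone 2 lay before and 19 after, and of those in MLP-F vs. C alone 1 and 10. The last region before the window (5284805 to 5285368) lay 4632 bp outside it and was listed in both MLP lists, with scores of 331 against C and 139 against MLP-F. The first MLP vs. MLP-F region after the window lay 65342 bp beyond it and scored 55.6. The first region inside the window, from 5407646 to 5408686, was in both MLP lists. The last, from 6283013 to 6283892, was listed in MLP-F vs. C alone and scored 106.

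Loci listed in MLP vs. C together with MLP vs. MLP-F, and not in MLP-F vs. C, numbered 13 of 56 (23.2%, 95% Wilson interval 14.1 to 35.8%), with the Surf6 region among them. Over all 72909 loci of the genome the share was 18.9%. The 3 members of this kind with the highest scores against MLP-F, after Surf6, all lay on the later side of the window. The region from 6083607 to 6084413 scored 137 against C and 374 against MLP-F. The region from 6157612 to 6158357 scored 58.8 against C and 337 against MLP-F, so it was near the cut-off in one list and among the top 3.16% of the other. The region from 5976125 to 5976780 scored 115 and 311. Before the Surf6 region, the one from 5696537 to 5697211 scored 96.0 and 224. The opposite order was seen at 5407646 to 5408686, with 186 against C and 102 against MLP-F, and at 5988747 to 5989271, with 153 and 114.

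In all, 14 regions were listed in both MLP lists, and each had the same start and end in both. This held for all 14194 such regions of the genome, so their bounds carry no information beyond the shared MLP library. Of the 14, 7 scored higher against MLP-F, 6 higher against C, and 1, from 6259555 to 6260102, scored 57.0 in both. Scores were under 100 in both lists for 6 of the 14, with that region among them. Both lists share the MLP library, so the pairs of scores are not independent.

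**Figure D2:**
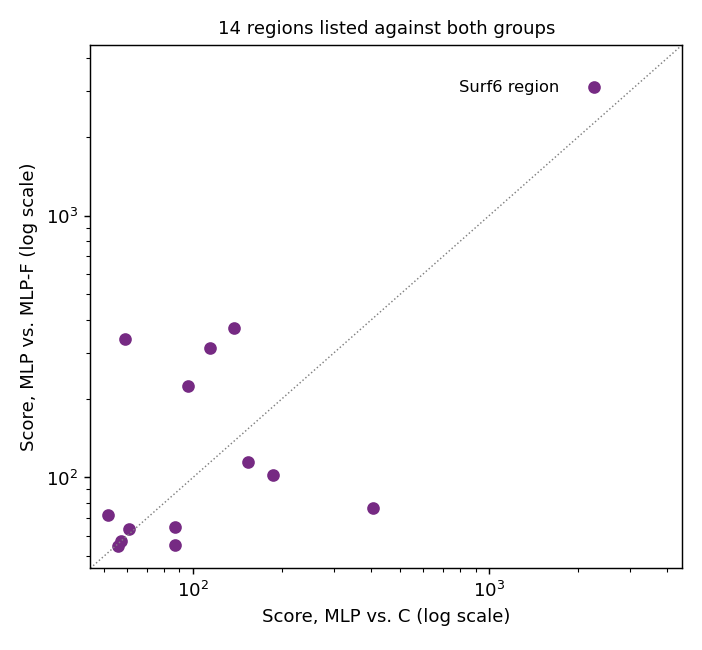
Score against C (x axis) and against MLP-F (y axis) of the 14 regions listed in both MLP lists, both on log scales; the dotted line marks equal scores. The Surf6 region stands at 2264 and 3100, and the other 13 lie at scores of 407 or less on both axes.

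As a share of each list, the 14 regions were 58.3% of the 24 MLP vs. C regions (95% Wilson interval 38.8 to 75.5%) and 40% of the 35 MLP vs. MLP-F regions (25.6 to 56.4%). Over the whole lists the shares were 39.4% and 42.1%. Both lay inside the intervals of the window, which cover counting error only, and the share in the window was not told apart from that of the lists.

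Regions that the MLP vs. C list shared with the MLP-F vs. C list, where C was the control in each, numbered 6. They were 25.0% of the MLP vs. C regions (12 to 44.9%) and 35.3% of the MLP-F vs. C regions (17.3 to 58.7%), against 22.6% and 31.8% of the whole lists. None of the 6 pairs had the same bounds. Of these loci, 5 were absent from MLP vs. MLP-F, which was 8.93% of the 56 (3.87 to 19.3%) against 10.6% of all loci. The highest were the region from 6032170 to 6033046, with a score of 316 in MLP vs. C and an overlapping MLP-F vs. C region of 117, and that from 6045356 to 6046306, with 219 and 86.6. These are neighbours, 12309 bp apart. The other 3 were the region from 5579518 to 5580110 (100 and 83.8), the one beside the Surf6 region, and the one from 5855210 to 5855867 (61.4 and 67.7), which is the first locus after the long gap.

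A single locus was in all 3 lists. The region from 5612135 to 5612596, 462 bp long, had the second highest MLP vs. C score of the window, 407, at place 345 of its list. It scored 76.6 in MLP vs. MLP-F and overlapped by 431 bp an MLP-F vs. C region (5612132 to 5612565) that scored 90.5. The listed order at this locus was thus MLP above MLP-F and MLP-F above C. It was 1 of 35 MLP vs. MLP-F regions (2.86%) that overlapped an MLP-F vs. C region, against 1.27% of the list, and 1 of 17 MLP-F vs. C regions (5.88%) that overlapped an MLP vs. MLP-F region, against 1.67%. It made up 1.79% of the loci (0.316 to 9.45%), and 0.553% of all loci of the genome were of this kind. No locus of the window was in the other two lists without being in MLP vs. C, and 0.0329% of all loci were of that kind.

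Loci of the MLP vs. MLP-F list that no other list held were the largest class of the window, with 21 of 56 (37.5%, 26.0 to 50.6%). The same class was the largest over all loci of the genome, with 26.8%, a share inside that interval. Of the 21 loci of the window, 2 scored at least 100. When every list was limited to scores of at least 100, 19 loci were left and this class was no longer the largest, with 4 loci against 6 in MLP vs. C alone and 5 listed in MLP vs. C as well as in MLP vs. MLP-F. The highest was 234, at 6122259 to 6123068, followed by 140 at 6007633 to 6009163, a region of 1531 bp, and 99.1 at 5640667 to 5642177. Between 5893526 and 5901530, 3 of them followed each other with scores of 58.1, 84.4 and 94.3, and an MLP vs. C region with a score of 59.2 came next (5903406 to 5904213). These neighbours did not overlap. Overlapping regions of the MLP lists always had the same bounds, so neighbours in them could only coincide or lie apart. A region absent from a list may have fallen short of the cut-off there.

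The longest run of loci with gaps under 10 kb, a limit set after the positions were seen, went from 5972346 to 6022022 and held 11 loci. It began with the highest MLP-F vs. C region of the window (5972346 to 5973075, score 188), which no other list held. After 3049 bp came the region with scores of 115 against C and 311 against MLP-F, and then 4 loci up to 5989271 that were all listed against MLP-F. Next came an MLP-F vs. C region (5997232 to 5998006, score 60.0) and an MLP vs. C region (5998198 to 5999347, score 109) that were 191 bp apart, the smallest gap of the window, and did not overlap. Of the last 3 loci, 2 were listed in MLP vs. MLP-F alone and 1 in MLP-F vs. C alone.

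Loci in MLP-F vs. C alone numbered 11 (19.6%, 11.3 to 31.8%, against 23.9% of all loci), with 1 before the Surf6 region and 10 after it. After the highest, at 188, their scores ran from 106 down to 57.8. Loci in MLP vs. C alone numbered 5 (8.93%, 3.87 to 19.26%). Over all loci of the genome the share was 19.28%, just above that interval, which covers counting error only. Several combinations of lists were compared in this way. At a score of at least 100 the class of MLP vs. C alone was the largest of the window, with 6 of 19 loci. The 5 loci included the second longest region of the MLP vs. C members, 1640 bp from 5634598 to 5636237 with a score of 197. The region from 6086865 to 6087730, with a score of 108, was also among them.

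**Figure D3:**
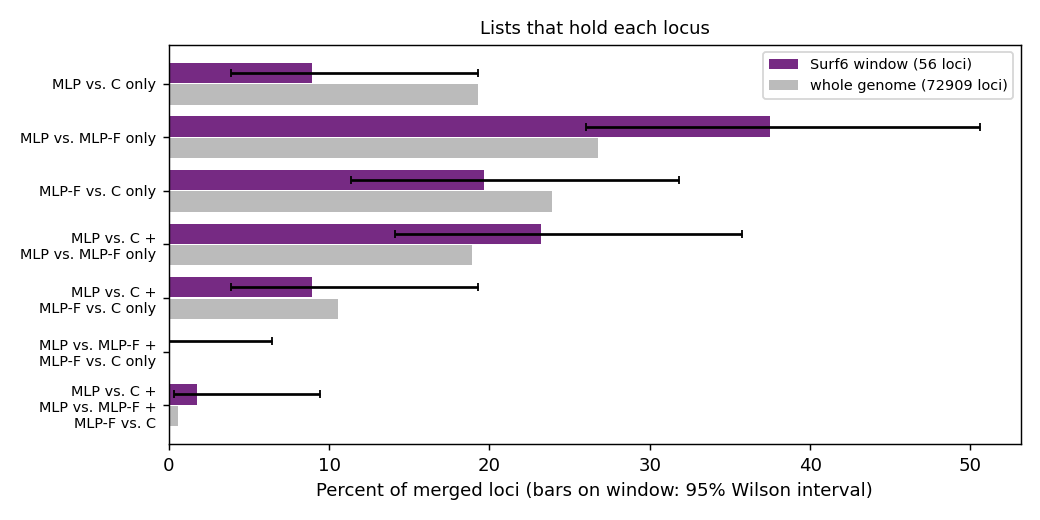
Percent of merged loci held by each combination of lists, for the 56 loci of the Surf6 window (purple, with 95% Wilson intervals) and for all 72909 loci (grey). Loci in MLP vs. MLP-F alone make up 37.5% of the window and 26.8% of the genome, and those in MLP vs. C alone 8.93% and 19.3%.

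The window held more regions than most stretches of its size in each list. The genome was tiled into 2697 windows of 1 Mb on placed chromosomes, and the median number of regions per window was 11 in the MLP vs. C list, 10 in that of MLP vs. MLP-F and 8 in that of MLP-F vs. C. At least as many regions as around Surf6 were found in 14.0% of windows for MLP vs. C, in 2.78% for MLP vs. MLP-F, and in 15.2% when MLP-F vs. C was counted. On chromosome 3 alone, with 170 windows, the shares were 18.2%, 4.71% and 12.9%. These are descriptions, because the window was chosen for a region of the same lists, and neighbouring windows are not independent.

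**Figure D4:**
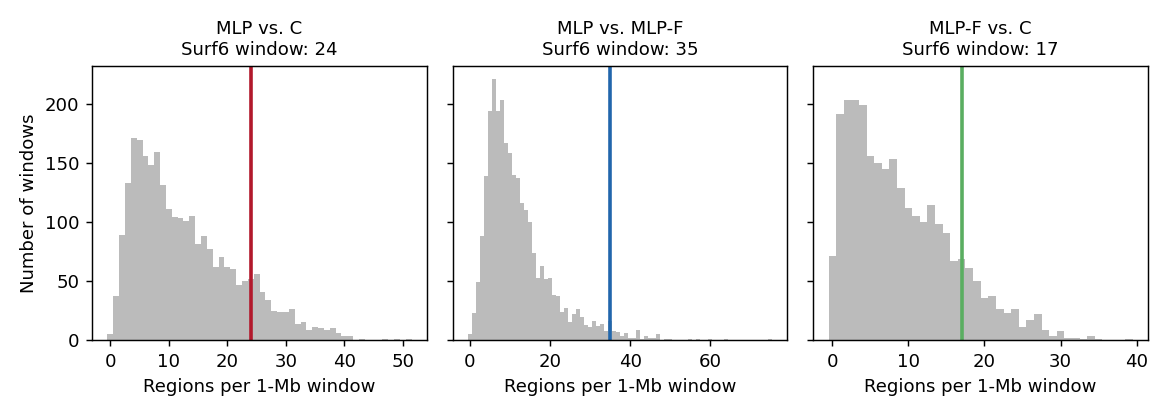
Number of 1-Mb windows (y axis) by the number of regions they hold (x axis), 1 panel for each list, with the Surf6 window as a coloured line at 24, 35 and 17 regions. The line for MLP vs. MLP-F lies furthest into the tail, with 2.78% of windows holding as many.

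The median scores of the members could not be told apart from those of their lists. The median of each whole list lay inside the interval of the members' median (95%, from ranks of the members' scores). This statement covers the medians only. For the upper part of each list the shares are given without an interval and were not tested. For MLP vs. MLP-F the median score was 71.5 (63.7 to 84.4) against 81.8 for the whole list, and 9 of 35 (25.7%) scored at least 100 against 36.8% of the list. In MLP vs. C the median was 98.1 (60.8 to 153) against 77.4, and 12 of 24 (50%) scored at least 100 against 31.1%. In MLP-F vs. C it was 83.8 (61.4 to 92.8) against 69.4, with 4 of 17 (23.5%) at 100 or more against 19.1%, and 0 of 17 at 1000 or more against 0.0313% of that list. The top 10% of each list by score held 6 of 24 MLP vs. C members (25%). For MLP vs. MLP-F it held 6 of 35 (17.1%), and for MLP-F vs. C 1 of 17 (5.88%). The Surf6 region, which chose the window, is counted in both MLP lists. Median lengths in the window were 777 bp, 734 bp and 729 bp in the same order of lists as the member counts at the start, and 674 bp, 727 bp and 657 bp in the whole lists. The regions covered 2.04%, 2.77% and 1.21% of the window, against 0.953%, 0.968% and 0.648% of the genome for the whole lists.

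The 4 regions that shared the highest MLP vs. MLP-F score with Surf6 are annotated to Acadm, a medium-chain acyl-CoA dehydrogenase, Mlph, RGD1306565 and LOC689904. All 5 were listed in MLP vs. C with the same start and end, and the Surf6 region had the lowest score of the 5 there, 2264 against 2732 for LOC689904 and 3100 for the other 3. The Surf6 region (2126 bp) and that of LOC689904 (2076 bp) were the shortest, and RGD1306565 the longest with 5062 bp. As at Surf6, no MLP-F vs. C region overlapped those of Mlph and LOC689904, while those of Acadm and RGD1306565 overlapped ones with scores of 134 and 184. Windows of the same size around the 5 regions held 35 MLP vs. MLP-F regions at Surf6, 27 at RGD1306565, 25 at Mlph, 15 at Acadm and 14 at LOC689904. The Surf6 window was the only one of the 5 with more MLP vs. MLP-F than MLP vs. C regions (35 and 24). At LOC689904 each of these lists held 14, and at RGD1306565, Acadm and Mlph the MLP vs. C regions were the more numerous. At a score of at least 100 the order at Surf6 turned, with 9 MLP vs. MLP-F and 12 MLP vs. C regions.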

How the data were processed

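Regions were taken from 3 deposited lists, 1 for each pair of pooled libraries (C, MLP and MLP-F). The authors mapped pairs of reads on rn4 by Bowtie, kept 1 alignment for each and found regions by MACS. The submitters' processing notes also name CASAVA, and no tool versions are given in the sources used here. The deposited score is 10 times the −log10 of the MACS p, and 50 was the lowest in every list. Fold enrichment and FDR were not used.

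Starts were converted to 1-based positions. Overlap meant at least 1 bp, and regions of the 3 lists that overlapped were joined into loci. Chromosome lengths were set at the last end seen in any list. For shares, 95% Wilson intervals were used, which cover counting error only. Overlap and joining were tested on simulated regions. Members and lists were chosen with earlier results of these data known. Genes were named by a rule: the surfeit cluster, its neighbours in RefSeq order, and the genes the study names for the highest MLP vs. MLP-F scores. Sequences came from RefSeq (GRCr8), and no rn4 sequence was used. Alternatives were a score of at least 100, overlap of 50% of both regions, regions within 1 kb, windows of 250 kb and 1 Mb on each side, and placed chromosomes only. Python 3.11.15, numpy 2.4.6, pandas 2.3.3, SciPy 1.17.1 and matplotlib 3.10.9 were used.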

Additional observations from a re-analysis of the deposited data

How the results depend on the processing

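With a score of at least 100 in every list, the regions of the window fell to 12 (MLP vs. C), 9 (MLP vs. MLP-F) and 4 (MLP-F vs. C), which are also the numbers per Mb, and the loci to 19, so the excess of MLP vs. MLP-F over MLP vs. C regions reversed. The medians of the scores were then 169, 234 and 112, and 8.33% of MLP vs. C regions overlapped an MLP-F vs. C region. At that score the genome held 4.44 MLP vs. MLP-F and 1.75 MLP-F vs. C regions per Mb, fewer than the window. Windows of 250 kb on each side held 19 MLP vs. MLP-F regions and 33 loci. Windows of 1 Mb on each side held 42, 64 and 30 regions and 105 loci, and these numbers follow from the size of the window. The share of MLP vs. C regions also listed against MLP-F was 41.7% at a score of at least 100 and ranged from 47.6% to 58.3% under the other alternatives. Overlap of 50% of both regions, regions within 1 kb and placed chromosomes alone left every result they bear on close to its value. The Surf6 region was found in the same lists at a score of at least 100, at 50% overlap and within 1 kb, and none of the alternatives can change a deposited score. No paired analysis was possible because each group is 1 pooled library. The lists hold no read counts for a region, so no limit on detection was set.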
